A study of Arabidopsis thaliana with 15 samples.

Results

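The 10 genes described here belong to the phosphate starvation response of Arabidopsis thaliana. They are PHR1, SPX1, SPX2, SPX3, PHT1;1, PHT1;4, PHO1, PHO1;H1, PHO2 and SQD2, chosen by name and found by locus identifier, and they are 10 of 33201 genes in the authors' comparison of mutant with wild type RNA. All 10 were among the 19868 genes that the authors tested. The seedlings were 14 days old and of 2 genotypes in the Col-0 background, wild type (WT, 3 RNA libraries) and syd-5 (3 RNA libraries), which carries a mutation in the SWI/SNF chromatin remodelling ATPase gene SPLAYED (SYD). Both genotypes were grown on the same kind of MS plate in long days, and the labels name no change in phosphate supply. The syd-5 line is a single allele, and whole seedlings were used, so that root and shoot RNA were pooled.

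Plants sense phosphate inside their cells and respond to its shortage by a set of genes under the transcription factor PHR1. When phosphate is ample, inositol pyrophosphates bind SPX domain proteins, which then hold PHR1 away from its targets, and the SPX1, SPX2 and SPX3 genes are themselves targets of PHR1. Uptake by roots runs through PHT1 transporters in the plasma membrane, export into the xylem runs through PHO1, and PHO2, a ubiquitin-conjugating enzyme, marks both kinds of transporter for breakdown. SQD2 makes sulfolipid, which takes the place of phospholipid in membranes when phosphate is short.

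Levels are the authors' values in FPKM, which scale for transcript length and library size, and there is 1 value per gene and genotype. No value per library, spread or depth stands behind them, and a gene is said to have risen or fallen only if the authors' deposited table gives it a q of 0.05 or less. SYD itself fell to 2.53 FPKM in syd-5 from 13.1 FPKM in WT, with a listed span that another gene shares. BRM, another chromatin remodelling ATPase gene, was at 21.2 FPKM in WT against 19.6 in syd-5. It was not called (q = 0.595 in the authors' deposited table). Scaling both genotypes to equal sums of FPKM moved the median log2 ratio of all tested genes from -0.02 to -0.15, a shift of -0.13.

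Of the 10 genes, 7 fell in syd-5 (70.0%), 3 were not called and 0 rose, and 0 were higher at an unadjusted p under 0.05 in the authors' deposited table. Among all tested genes 18.0% fell and 14.1% rose, and 32.1% were called in either direction. A level of 10 FPKM or more, averaged over both genotypes, was reached by 8 of the 10 genes, and of the 11353 tested genes at such levels 15.7% fell and 17.2% rose (32.9% in either direction). A called value of at most 50% of WT was found for 5 of the 10 genes and for 8.27% of all tested genes. The median log2 ratio of the 10 genes was -0.89, against -0.02 for all tested genes with a finite ratio. The genes that fell were the 3 SPX genes, both PHT1 genes, PHO1 and SQD2, with log2 ratios from -2.49 to -0.48. The 3 genes that were not called were PHR1, PHO2 and PHO1;H1, with log2 ratios from -0.16 to 0.28. In these whole seedlings fewer cells of a type and less RNA per cell cannot be told apart.

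**Figure D1:**
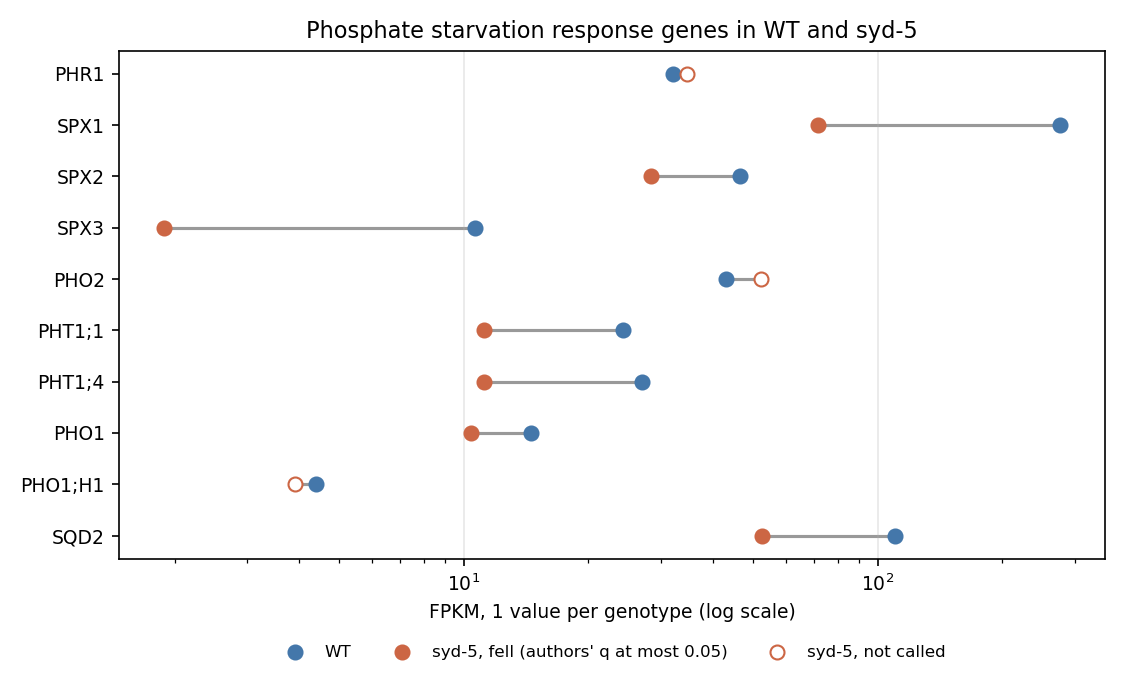
Levels of the 10 genes in FPKM (log scale), with 1 value for WT (blue) and 1 for syd-5 (orange, filled where the gene fell and open where it was not called), joined by a grey line. The widest gaps are those of SPX3 (10.6 to 1.89 FPKM) and SPX1 (276 to 71.8 FPKM), and the 3 open points lie next to their WT values.

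The transcription factor gene PHR1 (AT4G28610, TAIR10 chromosome 4, 14132856 to 14135259) was at 32.1 FPKM in WT against 34.7 in syd-5. It was not called (log2 0.11, which became -0.02 after scaling to equal sums, q = 0.589 in the authors' deposited table). Its log2 ratio was higher than that of 62.6% of tested genes. PHL1, the closest relative of PHR1 with an overlapping function, stood at 20.1 FPKM in WT and fell to 15.5 FPKM (q = 0.0460 in the authors' deposited table). This call was lost when the untested genes were included in the adjustment (q = 0.0769, computed with the p-values in the authors' deposited table).

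SPX1, SPX2 and SPX3, which encode inhibitors of PHR1, all fell. SPX1 (AT5G20150, chromosome 5, 6802372 to 6803625) was the most abundant of the 10 genes in both genotypes, and its level fell 3.84-fold, to 71.8 FPKM from 276 FPKM (log2 -1.94, q = 0.000351 in the authors' deposited table). SPX3 (AT2G45130, chromosome 2, 18606410 to 18607853) fell 5.62-fold to 1.89 FPKM from 10.6 FPKM (log2 -2.49, q = 0.000351 in the authors' deposited table). This was the lowest ratio of the 10, and 1.96% of tested genes had a lower one. SPX2 (AT2G26660, chromosome 2, 11338932 to 11340950) fell less, 1.64-fold, to 28.3 FPKM from 46.5 FPKM (log2 -0.71, q = 0.000351 in the authors' deposited table). That q is the smallest in the table and is shared by all genes at the smallest p, so that it does not rank them.

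The fourth SPX gene, SPX4, whose protein also restrains PHR1, was at 9.27 FPKM in WT against 11.3 in syd-5 and was not called (q = 0.220 in the authors' deposited table, log2 0.28). Per length, SPX3 and SPX4 were near each other in WT, with a ratio of levels of 1.14, and in syd-5 the level of SPX3 was 0.168 times that of SPX4. The level of SPX1 was 8.59 times that of PHR1 in WT and 2.07 times in syd-5. Summed over SPX1, SPX2 and SPX3, the level was 333 FPKM in WT against 102 in syd-5.

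PHO2 (AT2G33770, chromosome 2, 14277558 to 14283040) was at 43.1 FPKM in WT against 52.2 in syd-5 and was not called (q = 0.134 in the authors' deposited table, log2 0.28). NLA, a ubiquitin ligase gene that acts on PHT1 transporters, was likewise not called, at 15.5 and 17.8 FPKM, with a span that another gene shares. PHO2 transcripts are cut under the guidance of the microRNA miR399, and the non-coding RNA IPS1 binds miR399 and blocks it. IPS1 fell 13.8-fold, to 5.21 FPKM from 72.0 FPKM (log2 -3.79, q = 0.000351 in the authors' deposited table). Its relative AT4 (AT5G03545) was at 278 FPKM in WT against 239 in syd-5 and was not called (q = 0.274 in the authors' deposited table, log2 -0.22). All 6 MIR399 genes and MIR827 were listed at 0 in both genotypes and were not tested, and these entries say nothing about the mature microRNAs.

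PHT1;1 and PHT1;4, which encode proton-coupled phosphate importers of the root surface, both fell in syd-5. PHT1;4 (AT2G38940, chromosome 2, 16257228 to 16260225) fell 2.41-fold, to 11.2 FPKM from 26.96 FPKM (log2 -1.27, q = 0.000351 in the authors' deposited table). PHT1;1 (AT5G43350, chromosome 5, 17399789 to 17401949) fell 2.17-fold, to 11.2 FPKM from 24.3 FPKM (log2 -1.12, q = 0.000351 in the authors' deposited table). The level of PHT1;4 was 1.11 times that of PHT1;1 in WT and 0.998 times in syd-5, so that the order of this pair rests on differences without a known error. PHT1;1 has close copies beside it, PHT1;2 and PHT1;3, among which reads can be split wrongly, and its single value is less certain. The sum over these 3 genes was 24.9 FPKM in WT against 11.2 in syd-5, a 2.22-fold lower level.

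Across the 9 PHT1 genes, 7 were above 0 and lower in syd-5 and 2, PHT1;3 and PHT1;6, were listed at 0 in both genotypes. Among all tested genes 10342 of 19868 were lower in syd-5. That count leaves out untested genes, whereas the 7 include the untested PHT1;7 and PHT1;8. PHT1;7 (0.177 FPKM in WT and 0.0371 in syd-5) and PHT1;8 (0.494 and 0.0412 FPKM) were low and not tested. Of the 5 that were tested 4 fell, PHT1;1 and PHT1;4 among them, beside 18.0% of all tested genes. PHT1;5, which moves phosphate between source and sink organs, fell to 0.402 FPKM from 2.50 FPKM (log2 -2.64), and PHT1;9 fell to 0.0958 FPKM from 0.648 FPKM (log2 -2.76). The call of PHT1;9 (q = 0.0139 in the authors' deposited table) did not hold at a q of 0.01 or where a mean of 1 FPKM was required. PHT1;2 was not called (q = 0.393 in the authors' deposited table), although its values were 0.575 FPKM in WT against 0.0107 in syd-5. The family summed to 55.6 FPKM in WT against 22.9 in syd-5, and nearly all of it came from PHT1;1 and PHT1;4, since the other 7 genes summed to 4.39 and 0.587 FPKM. PHF1, which helps PHT1 proteins leave the endoplasmic reticulum, was at 20.5 and 16.3 FPKM and was not called (q = 0.0725 in the authors' deposited table).

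**Figure D2:**
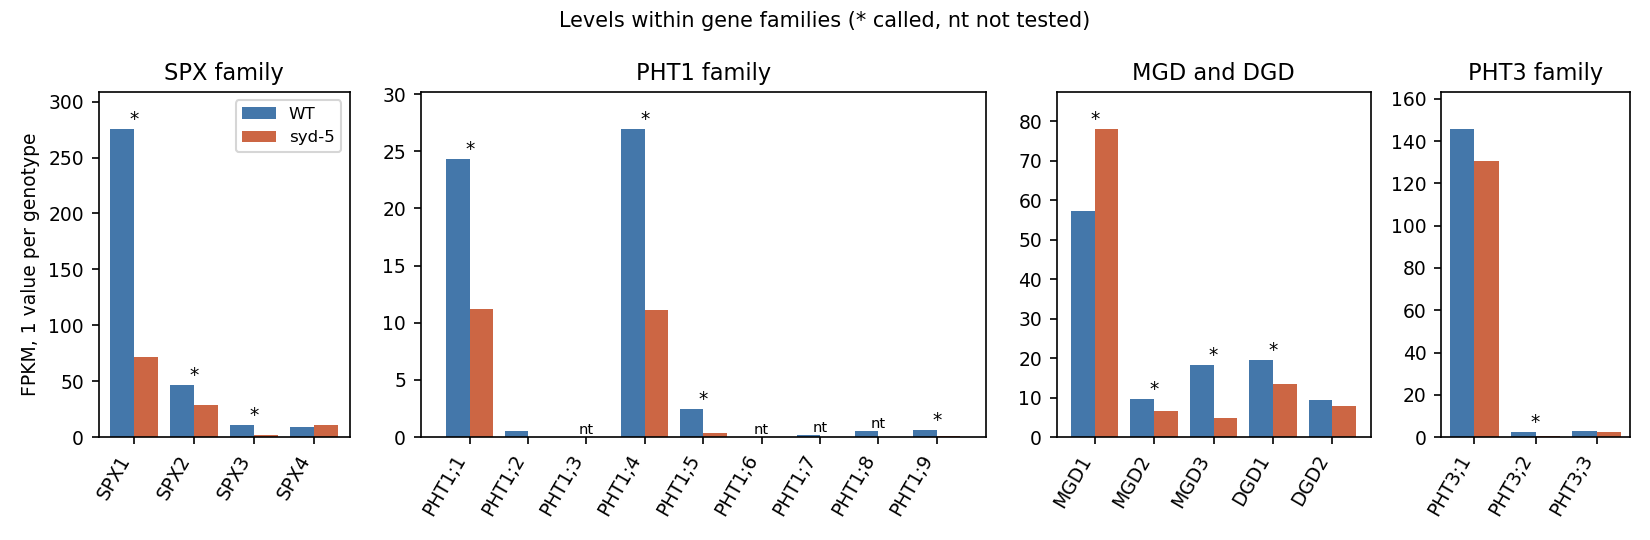
Levels in FPKM (linear scale from 0) of genes of the SPX and PHT1 families, of the galactolipid synthase genes MGD and DGD, and of the mitochondrial PHT3 family, in WT (blue) and syd-5 (orange), with 1 value per genotype an asterisk over called genes and nt over genes not tested. Within families the called falls stand beside members that were not called, such as SPX4 (9.27 and 11.3 FPKM) and PHT3;1 (146 and 131 FPKM), and MGD1 is higher in syd-5 (57.2 to 78.0 FPKM).

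PHO1 (AT3G23430, chromosome 3, 8387508 to 8393296), the exporter that loads phosphate into the xylem, had the smallest change among the genes that fell. Its level was 14.5 FPKM in WT against 10.4 in syd-5, a 1.39-fold lower value (log2 -0.48, q = 0.00641 in the authors' deposited table), and the call did not hold where a ratio of at least 1.5 was also required. Its relative PHO1;H1 (AT1G68740, chromosome 1, 25812449 to 25816657), which can also carry phosphate to the shoot, was the least abundant of the 10 genes in WT. It was at 4.38 FPKM in WT against 3.91 in syd-5 and was not called (q = 0.520 in the authors' deposited table, log2 -0.16). The level of PHO1 was 3.31 times that of PHO1;H1 in WT and 2.66 times in syd-5. Of 2 other PHO1 family genes with a name in the gene table, PHO1;H3 was not called (4.03 and 4.01 FPKM) and SHB1, known for its part in seedling light responses and seed size, fell to 0.464 FPKM from 1.499 FPKM (log2 -1.69). The call of SHB1 did not hold where a mean of at least 1 FPKM was required. Over all 9 IDs listed for this family, 7 were tested, of which 3 fell and 4 were not called, beside 18.0% of all tested genes that fell.

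SQD2 (AT5G01220, chromosome 5, 86585 to 89986), the last enzyme gene of sulfolipid synthesis, fell to 52.4 FPKM from 110.2 FPKM, which is 47.5% of WT (q = 0.000351 in the authors' deposited table, log2 -1.07). SQD1, which makes the sulfur-bearing sugar that SQD2 uses, was at 92.2 FPKM in syd-5, which is 92.2% of its WT level, and was not called. UGP3, the gene of the plastid enzyme one step earlier, rose to 68.6 FPKM from 52.3 FPKM (its span is shared).

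Among 14 tested genes of membrane lipid remodelling, 7 fell, 3 rose and 4 were not called. Among all tested genes 18.0% fell and 14.1% rose. NPC4, a phospholipase C gene, fell 6.98-fold to 0.553 FPKM from 3.86 FPKM (log2 -2.80), and the phospholipase D zeta 2 gene PLDP2 fell to 3.53 FPKM from 7.21 FPKM (log2 -1.03). MGD3, a galactolipid synthase gene of the outer plastid envelope known for its induction by low phosphate, fell 3.79-fold to 4.84 FPKM from 18.4 FPKM (log2 -1.92). MGD2, of the same envelope, fell to 6.55 FPKM from 9.59 FPKM (log2 -0.55), while MGD1, the main galactolipid synthase of the inner envelope, rose to 78.0 FPKM from 57.2 FPKM (log2 0.45, q = 0.00683 in the authors' deposited table). DGD1, which makes digalactolipid for photosynthetic membranes, fell to 13.4 FPKM from 19.5 FPKM (log2 -0.54), and DGD2 was not called, at 9.51 and 7.97 FPKM. The glycerophosphodiesterase genes went apart. GDPD1, whose span is shared, fell to 160 FPKM from 260 FPKM, and GDPD2 rose to 149 FPKM from 57.1 FPKM (log2 1.38, q = 0.000351 in the authors' deposited table). With a minimum ratio of 1.5, the lipid list held 4 falls and 1 rise.

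Genes of enzymes that free phosphate from other compounds showed some of the widest falls. PEPC1 (also PECP1), a phosphoethanolamine and phosphocholine phosphatase gene, fell 13.7-fold to 1.42 FPKM from 19.4 FPKM (log2 -3.77), and PS2, a pyrophosphate-specific phosphatase gene, fell 7.01-fold to 5.83 FPKM from 40.9 FPKM (log2 -2.81). RNS1, a secreted ribonuclease gene, fell to 0.474 FPKM from 2.84 FPKM (log2 -2.58), and PAP25 fell to a listed value of 0 from 0.553 FPKM. Of the 10 tested members of this list 6 fell and 4 were not called, beside 18.0% of all tested genes that fell. Where a mean of at least 1 FPKM was required, 4 falls remained. Among acid phosphatase genes, PAP17 fell 3.28-fold to 29.6 FPKM from 97.1 FPKM (its span is shared), whereas PAP26, the main intracellular enzyme, was at 103 and 114 FPKM and was not called.

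All 3 genes listed for carbon metabolism fell, beside 18.0% of all tested genes. The phosphoenolpyruvate carboxylase kinase genes PPCK1 and PPCK2 fell to 25.4 FPKM from 116 FPKM (log2 -2.19) and to 1.28 FPKM from 6.45 FPKM (log2 -2.33). The glycerol-3-phosphate permease gene G3Pp1 fell to 18.0 FPKM from 53.1 FPKM (log2 -1.56).

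Of 10 tested regulators outside the 10 main genes, 5 fell and 5 were not called, beside 18.0% of all tested genes that fell. ZAT6, which encodes a zinc finger repressor, fell 5.62-fold to 20.7 FPKM from 117 FPKM (log2 -2.49), and MYB62, which is induced by low phosphate, fell to 0.512 FPKM from 2.58 FPKM (log2 -2.33). WRKY75 fell to 2.63 FPKM from 6.74 FPKM (log2 -1.36), and WRKY6, a repressor of PHO1, fell to 21.0 FPKM from 31.3 FPKM (log2 -0.58). With a minimum ratio of 1.5, 3 of these regulators stayed called as lower. The ZAT and WRKY genes also respond to defence and abiotic stress, so that they are not markers of phosphate alone.

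Of the 3 tested enzyme genes of inositol phosphates that SPX domains sense, 0 were called, also at an unadjusted p under 0.05, in the authors' deposited table, with ITPK1 at 19.99 and 19.6 FPKM and IPK1, whose span is shared, at 13.8 and 9.89 FPKM (p = 0.165 unadjusted in the authors' deposited table). Of 10 tested organelle transporter genes 2 fell (20%, near the 18.0% of all tested genes) and 8 were not called, with log2 ratios of those 8 from -0.38 to 0.37. The mitochondrial carrier gene PHT3;2 fell to 0.567 FPKM from 2.48 FPKM (log2 -2.13), and its far more abundant relative PHT3;1 was at 146 and 131 FPKM and was not called. PHT4;2, of root plastids, fell to 0.349 FPKM from 0.745 FPKM (q = 0.0432 in the authors' deposited table). Its call was lost when untested genes entered the adjustment (q = 0.0722, computed with the p-values in the authors' deposited table), and it also did not hold at a q of 0.01 or where a mean of 1 FPKM was required, which left 1 fall among the organelle genes. Of 5 genes of the local root response 1 fell (20%, also near the share of all tested genes). This was LPR2, a ferroxidase-like gene, which fell to 19.6 FPKM from 37.5 FPKM (log2 -0.94), and LPR1, PDR2, ALMT1 and STOP1 were not called.

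Over the 10 lists of other phosphate genes, 63 members were tested, of which 28 fell (44.4%), 3 rose (4.76%) and 32 had no call, beside the 18.0% and 14.1% of all tested genes given above. The 3 that rose were GDPD2, MGD1 and UGP3. The median log2 ratio over the lists was -0.34. Together with the 10 main genes, 35 of 73 tested genes fell.

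**Figure D3:**
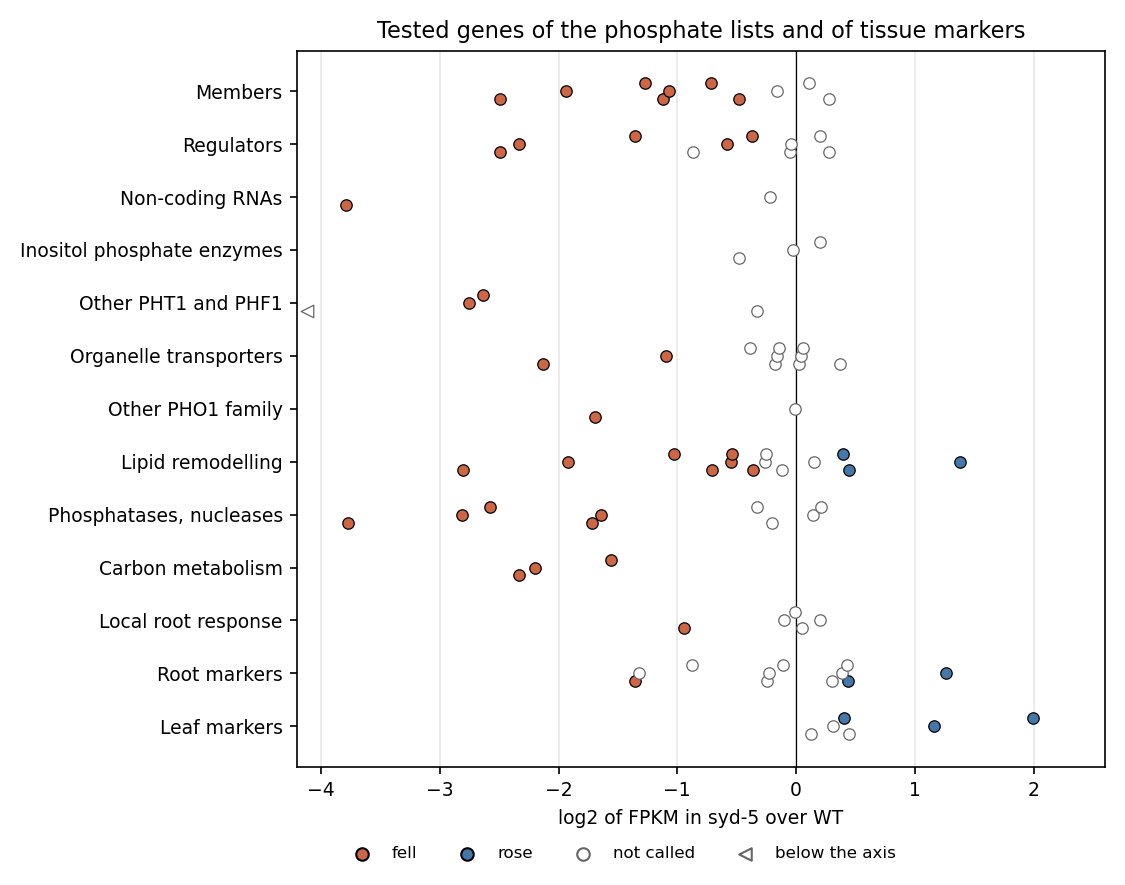
Each point is a tested gene with a finite ratio, at its log2 ratio of FPKM in syd-5 over WT, in rows by list (orange where it fell, blue where it rose, white where it was not called). PHT1;2 lies below the axis and is drawn as a triangle, and PAP25, listed at 0 in syd-5, is not drawn. The phosphate lists reach to the left, down to -3.79 for IPS1, while the root markers lie on both sides of 0 and the 6 leaf markers lie above it.

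Tissue markers were read beside these values, since several of the genes act mainly in roots. In either genotype 0 of 16 root markers and 0 of 6 leaf markers were listed at 0. A value above 0 does not measure how much RNA of a tissue was present. Of the root markers 5 were not tested and lay below 1 FPKM, such as RSL1 at 0.0241 FPKM in WT. The root markers summed to 38.4 FPKM in WT against 41.4 in syd-5. The largest were SCR (11.2 and 9.59 FPKM), AKT1 (8.79 and 10.8 FPKM, with a shared span) and SHR (6.49 and 8.79 FPKM). Of 11 tested root markers 1 fell (RBOHC, an oxidase gene of root hair growth, to 0.394 from 1.01 FPKM), 2 rose (SHR and EXPA18) and 8 were not called, and their median log2 ratio was -0.11. The leaf markers summed to 14104 FPKM in WT against 18668 in syd-5, with RBCS1A the largest (8061 and 9983 FPKM). Of the 6, 3 rose (LHCB1.1, LHCA3 and PSBS), beside 14.1% of all tested genes. RBCS1A, CA1 and RCA were not called. The median log2 ratio of the 6 was 0.43. The calls of EXPA18 (q = 0.0532) and PSBS (q = 0.0762) were lost when untested genes entered the adjustment of the p-values in the authors' deposited table. The part of the higher leaf marker values in the lower values of the phosphate genes was not tested.

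Among all tested genes by level and ratio, the genes that fell lay across a wide range of abundance. In WT the levels ran from SPX1 over SQD2, SPX2, PHO2, PHR1, PHT1;4, PHT1;1, PHO1 and SPX3 down to PHO1;H1, a 62.9-fold range. In syd-5 PHO2 and PHR1 stood above SPX2, and SPX3 was lowest, over a 38.0-fold range. Without values per library it is not known which neighbours in these orders differ beyond their spread. SPX1 was higher in WT than all but 2.24% of tested genes, and PHO1;H1 was lower than 74.5% of them.

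**Figure D4:**
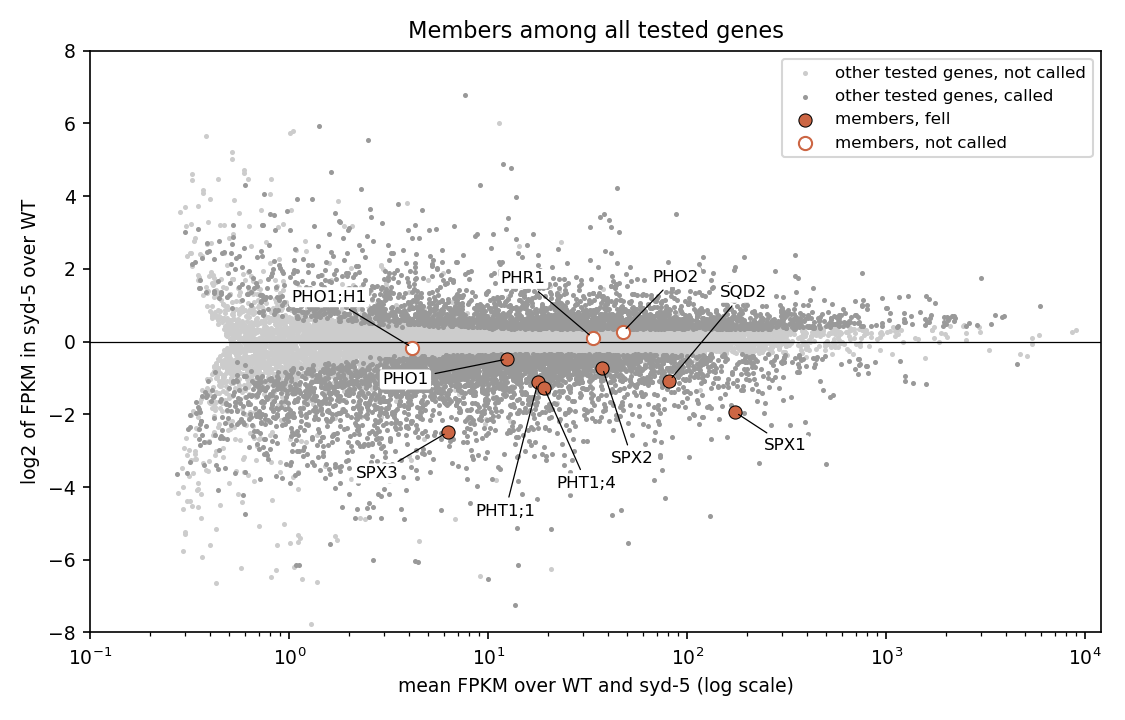
Each point is a tested gene, at its mean FPKM over WT and syd-5 (log scale) and its log2 ratio of FPKM in syd-5 over WT (light grey where not called, dark grey where called), with the 10 genes in orange outline or fill and labelled. The 7 filled points lie between log2 -2.49 (SPX3) and -0.48 (PHO1), and the open points of PHR1, PHO2 and PHO1;H1 lie near 0, while 2 of 19796 genes fall outside the axes.

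The genes that lie next to the 10 genes on the chromosomes were examined as well. Taking the nearest 2 listed genes on either side gave 40 neighbours, of which 30 were tested. Of these 2 fell, 4 rose and 24 were not called, with a median log2 ratio of 0.08, beside the 18.0% of all tested genes that fell and the 14.1% that rose. Around the 7 genes that fell, 2 of 22 tested neighbours fell and 3 rose. SPX1 lies between HBP5 (33.5 and 39.3 FPKM, not called) and AT5G20160, which rose to 91.1 FPKM from 67.7 FPKM. Beside SPX2 the potassium channel gene KT1, also named AKT1, was at 8.79 and 10.8 FPKM and was not called, with a shared span. No listed span of the 10 genes overlapped that of another gene.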

How the data were processed

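RNA of 3 WT and 3 syd-5 libraries was measured. The other 9 libraries of the series (chromatin immunoprecipitations and inputs) were not analysed here. Per the submitters' processing notes, Bowtie2, TopHat2 (version 2.0.4), bedtools and the build TAIR10 were used, with no role given. No source used here names the program behind the table. The expression values deposited by the authors were read as FPKM, a unit that the file header does not name. Each genotype has 1 value, so that depth and the spread between libraries are unknown, and whether libraries came from separately grown plants is not given. The p-values and q-values are those the authors deposited, and q is the Benjamini-Hochberg value of p across the 19868 tested genes, to within 5.22e-07. The smallest p, 5e-05, is shared by 2831 genes.

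Log2 ratios of FPKM in syd-5 over WT were computed with no pseudocount (Python 3.11.15, pandas 2.3.3, numpy 2.4.6, figures with matplotlib 3.10.9), and the adjustment was tested on simulated data. The fixed design allowed for values per library. As there were none, its fallback, the authors' q of at most 0.05, was used. Starts in the table count from 0 (38.9% equal the RefSeq start after adding 1, against 0.410% as deposited), and coordinates are printed counted from 1. Names were taken from RefSeq (TAIR10.1), where 97.0% of IDs were found. Of 94 fixed pathway IDs, 17 do not carry the name they were listed under in that table and were left out, and ITPK4 occurs only in an entry joined with another gene. The members, lists and tests were chosen with earlier results of these data known. The text names all members, SYD, BRM, and for each list the called genes of smallest q, at most 4 of them (ties by the larger ratio). Other genes named were chosen after their values were seen.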

Additional observations from a re-analysis of the deposited data

How the results depend on the processing

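No paired analysis was possible because the table gives 1 value per genotype and none per library. For the same reason the planned fits that leave out a library were not run, and the planned motif and protein comparisons were not run. Of the 80 values of single members under 8 other settings, 78 kept their direction and their side of the threshold. Settings that change only the cut-off, a filter or the adjustment leave the log2 ratio as it is. Scaling, centring and the pseudocount leave the authors' q as it is. Much of this likeness was therefore fixed in advance and is no measure of the spread between libraries. PHR1 changed sign to -0.0201 (log2) after scaling to equal sums, and the call of PHO1 was lost where a ratio of at least 1.5 was required. The count of members that fell ranged from 6 to 7. The median log2 ratio of the members was -0.89, and became -1.03 after scaling to equal sums, -0.87 after centring on the median of all tested genes (-0.02) and -0.87 with a pseudocount of 1, which follows from how these scalings are made. Over the pathway lists, falls ranged from 23 to 32 (28 of 63 tested in the main count, or 44.4%, with a median log2 ratio of -0.34, and 32 of 76, or 42.1%, with a median of -0.27, with all fixed IDs, an alternative chosen after seeing the data, as was leaving out PHT1;1), and rises fell from 3 to 1 where a ratio of at least 1.5 was required. The unknown depth limits the low values most, such as those of PHT1;2 and PAP25.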

Other observations

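Gene families that neighbour the phosphate response in metabolism were gathered by their names in the gene table, a choice made after values had been seen. All 3 tested phosphoenolpyruvate carboxylase genes, which fix carbon into organic acids and are the substrates of the PPCK kinases, fell. PPC1 fell 2.06-fold to 24.7 FPKM from 50.9 FPKM, PPC3 fell 1.73-fold to 8.27 FPKM from 14.3 FPKM and PPC2 fell 1.47-fold to 93.6 FPKM from 138 FPKM. Among the 6 inorganic pyrophosphatase genes, whose products split pyrophosphate into phosphate, 3 fell, 1 rose and 2 were not called. PPa5 fell to 15.2 FPKM from 35.6 FPKM and PPa2 to 28.0 FPKM from 53.3 FPKM, whereas PPa6, which encodes the plastid enzyme, rose to 212 FPKM from 139 FPKM. These calls rest on q in the authors' deposited table (at most 0.05) and stand beside 18.0% of all tested genes that fell.

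Of 20 tested purple acid phosphatase genes, 7 fell, 1 rose and 12 were not called. Among those that fell, PAP13, PAP22, PAP24 and PAP25 were low, at 1.36 FPKM or less in WT and 0.472 FPKM or less in syd-5. PAP16 and PAP17 have shared spans, and the q of PAP16 was 0.0477 in the authors' deposited table. PAP24 fell 8.44-fold to 0.161 FPKM from 1.36 FPKM, and PAP3 rose 2.19-fold to 39.6 FPKM from 18.1 FPKM. PAP14 had 6.78 FPKM in WT against 0.0136 in syd-5 with no call (q = 0.396 in the authors' deposited table). PHT1;2 had a like pair of values with no call. The purple acid phosphatases and the other 4 families gathered in this way share genes with the lists above. The falls of PAP17, PAP22 and PAP25 were already counted there. Of 11 tested phospholipase D genes 3 fell and 8 were not called, and of 5 tested nonspecific phospholipase C genes 1 fell, 1 rose and 3 were not called. Of 3 tested glycerol-3-phosphate permease genes 1 fell, and of 3 tested RNS ribonuclease genes 2 fell. The counts of these families stand beside 18.0% of all tested genes that fell and 14.1% that rose. The falls among phospholipase C genes are near that share, and no family was tested as a set.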
